A study of Mus musculus with 6 samples.

Results

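Glycolysis turns glucose into pyruvate, and under low oxygen or high demand the pyruvate is reduced to lactate and carried out of the cell with a proton. Hexokinases trap glucose as glucose phosphate, phosphofructokinase 1 commits it to the pathway, phosphofructokinase 2 enzymes set the level of its strongest activator, lactate dehydrogenase converts pyruvate and lactate into each other, and monocarboxylate transporters move lactate across membranes. In brain these steps are divided among cell types, and lactate made by glia is widely held to be taken up and burned by neurons. A set of 10 genes covering these steps was read out of the 56826 gene rows by symbol: the hexokinases Hk1 and Hk2, the phosphofructokinase 1 subunits Pfkm, Pfkp and Pfkl, the phosphofructokinase 2 gene Pfkfb3, the lactate dehydrogenase subunits Ldha and Ldhb, and the monocarboxylate transporters Slc16a1 and Slc16a3. All 10 had a row and all 10 passed the filter on low counts, with between 163 and 16452 counts in each library.

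The libraries came from cortex of wild-type C57BL/6 mice in 2 groups, with 3 TBI libraries (traumatic brain injury) from cortex bordering the lesion, taken 24 h later, and 3 control libraries from normal cortex. The labels do not give the injury method, the age or sex of the mice, whether a library pools animals, or whether control mice were operated on, and p-values measure the spread between these libraries. Total counts over gene rows were 68808787 to 72169720 in TBI and 67252519 to 83929814 in control. Neuronal mRNA was abundant in both groups, with Snap25, a synaptic release protein found throughout the brain, at 543 RPKM in TBI and 641 RPKM in control on average (log2 fold change -0.32, edgeR adjusted p = 0.0275), and no marker specific to cortex was examined. RPKM here is the authors' count divided by the row's length in kilobases and scaled to the library's total count. Fold changes are TBI over control from edgeR's quasi-likelihood test on counts, with Benjamini-Hochberg adjustment over all 42762 rows tested, and a gene was called at an adjusted p under 0.05.

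Injured cortex had more mRNA of 4 of the 10 genes, Slc16a3, Hk2, Pfkfb3 and Slc16a1, and less of 1, Ldhb. Over all rows tested, which include FANTOM3 cDNA clones, 17.5% were called, 9.12% higher and 8.36% lower. Calls were more frequent among the 16941 tested rows with a RefSeq gene name, the kind the 10 genes have. Of those, 2613 were higher and 1817 lower. Without TMM factors (edgeR's correction for library composition) the share of higher rows among all those called was 67.8% in place of 52.2%. Hk1, Pfkm, Pfkp, Pfkl and Ldha were not called. The median log2 fold change was 0.16 over the 10 genes and 0.006 over all rows. Of the 4 that rose, Hk2, Slc16a3 and Pfkfb3 had the lowest levels per length of the set in control cortex. In whole tissue, fewer cells of a type and less RNA per cell cannot be told apart.

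**Figure D1:**
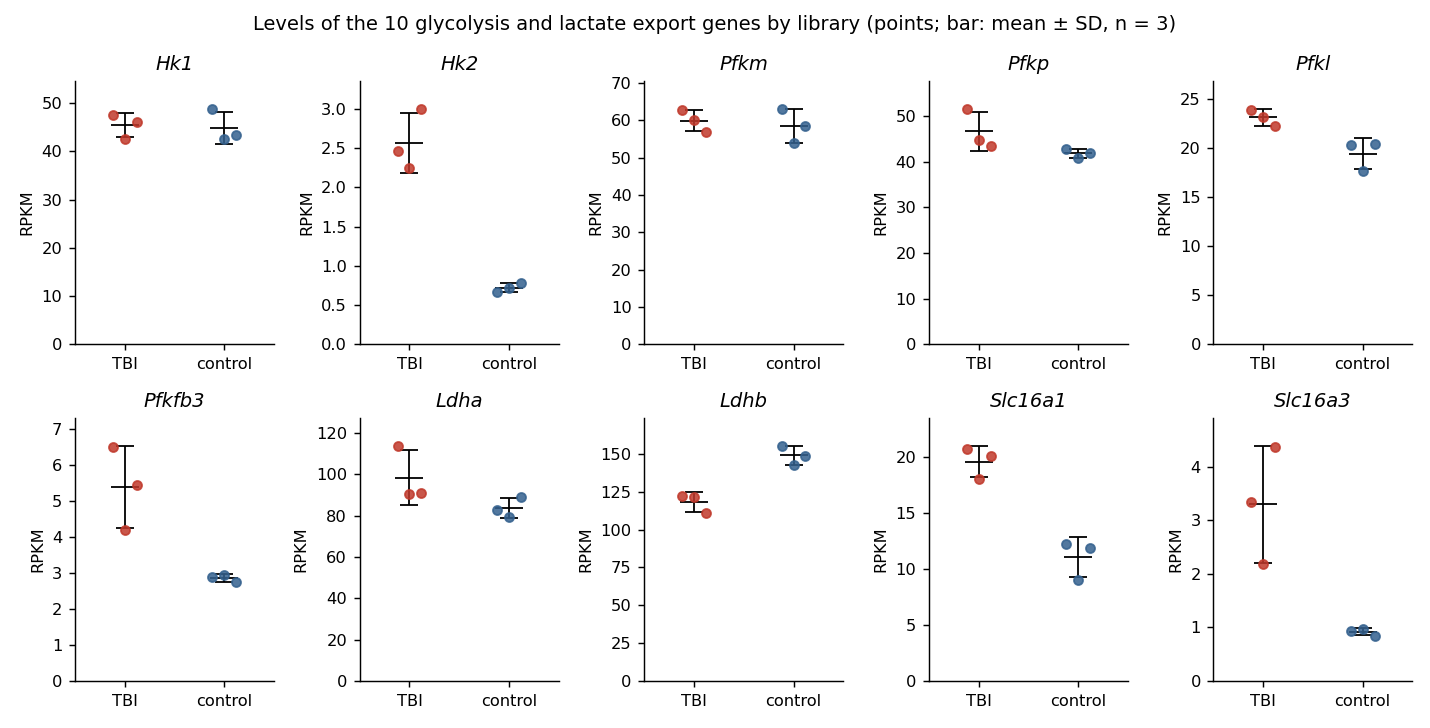
RPKM of each of the 10 genes in the 3 TBI and 3 control libraries, with every vertical axis starting at 0; points are libraries and bars the mean ± SD. Hk2, Pfkfb3, Slc16a1 and Slc16a3 were higher and Ldhb lower in every TBI library than in any control library, while Hk1 and Pfkm overlapped.

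At the first step the 2 hexokinases differed. Hk2, the inducible hexokinase (chromosome 6, 82725023 to 82774454, minus strand, mm10), was at 2.46, 2.25 and 3.0 RPKM in TBI libraries 1 to 3 and at 0.664, 0.715 and 0.778 RPKM in control libraries 1 to 3. All 3 TBI libraries lay above all 3 control libraries. It rose 3.38-fold (log2 fold change 1.76 ± 0.13 SE, edgeR adjusted p = 1.73e-06). Hk1, the constitutive hexokinase of brain (chromosome 10, 62268855 to 62379916, minus strand), was at 47.6, 42.7 and 46.1 RPKM in TBI and 48.7, 42.5 and 43.5 RPKM in control. These values overlapped, and the log2 fold change of -0.06 had a 95% interval of -0.25 to 0.12 (edgeR adjusted p = 0.675). Its sign was positive without TMM factors (0.02). Hk3, a hexokinase of myeloid blood cells and the only other one of the family to rise, was at 1.30 ± 0.279 RPKM in TBI and 0.235 ± 0.0650 RPKM in control (SD, n = 3 each; log2 fold change 2.38 ± 0.22 SE, edgeR adjusted p = 1.44e-05). Hkdc1, a hexokinase domain gene, averaged 1.06 ± 0.12 RPKM in TBI and 2.20 ± 0.806 RPKM in control (SD, n = 3 each). It fell by 1.13 on the log2 scale (edgeR adjusted p = 0.00545) and is not part of the hexokinase sum below.

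Per unit length, Hk1 still supplied most hexokinase mRNA. Hk2 made up 5.20 ± 0.625% of the summed RPKM of Hk1, Hk2 and Hk3 in TBI and 1.58 ± 0.214% in control (SD, n = 3 each). Hk3 made up 2.62 ± 0.448% in TBI and 0.520 ± 0.173% in control. The summed level of the 3 genes was 49.3 ± 2.95 RPKM in TBI and 45.9 ± 3.27 RPKM in control. The Hk2 to Hk1 ratio of RPKM was 3.51 times as high in TBI, with no overlap between libraries. A two-sided exact permutation test gave p = 0.1, the smallest that 3 against 3 libraries allow, and 0.125 adjusted over the 5 isozyme ratios tested.

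The 3 subunits of phosphofructokinase 1, the committing enzyme of glycolysis, showed small differences that the test did not call. Pfkm, the muscle-type subunit (chromosome 15, 98092589 to 98132447, plus strand), was at 62.8, 60.1 and 57.0 RPKM in TBI and 63.0, 53.9 and 58.4 RPKM in control. Its libraries overlapped, with a log2 fold change of -0.04 and a 95% interval of -0.23 to 0.14 (edgeR adjusted p = 0.794), and the sign was positive without TMM factors (0.04). Pfkp, the platelet-type subunit (chromosome 13, 6579874 to 6648795, minus strand), was at 51.5, 44.9 and 43.5 RPKM in TBI and 42.8, 40.9 and 42.0 RPKM in control. In RPKM the groups did not overlap, but with TMM factors they did, and the log2 fold change was 0.08 (95% interval -0.10 to 0.25, edgeR adjusted p = 0.605). Without TBI library 1 it was -0.01.

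Pfkl, the liver-type subunit (chromosome 10, 77986947 to 78009796, minus strand), was the least abundant of the 3. It was at 23.9, 23.2 and 22.3 RPKM in TBI and 20.3, 17.6 and 20.4 RPKM in control, and the groups did not overlap with or without TMM factors. The log2 fold change of 0.17 ± 0.08 (SE) was not called (95% interval -0.01 to 0.35, edgeR adjusted p = 0.209), and it was called without TMM factors (0.25, edgeR adjusted p = 0.0376). The Pfkl to Pfkm ratio was 0.381, 0.386 and 0.391 in TBI and 0.322, 0.328 and 0.349 in control. This ratio was 1.16 times as high in TBI with no overlap (exact permutation p = 0.1, adjusted 0.125), while the Pfkp to Pfkm ratio overlapped (exact permutation p = 0.2, adjusted 0.2). Pfkp shares its locus with the opposite-strand gene Pitrm1, which had at most 19.8% as many counts, and Pfkm with Senp1, at most 7.96%. The libraries were dUTP-labelled, per the labels' protocols, but no source used here says whether counting used strand, so reads of such pairs may not be separable.

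Pfkfb3, the phosphofructokinase 2 enzyme with the strongest bias towards making the activator of phosphofructokinase 1 (chromosome 2, 11471430 to 11554071, minus strand), was higher. It was at 6.49, 4.2 and 5.45 RPKM in TBI and 2.89, 2.94 and 2.74 RPKM in control. The control libraries were tightly grouped and the TBI libraries spread widely, with library 1 highest and library 2 lowest. The rise was 1.78-fold (log2 fold change 0.84 ± 0.13 SE, edgeR adjusted p = 0.000771). All 8 of its transcript rows were also called higher, but each held at least 90.3% of the gene's counts, so they are not separate measurements. Of its paralogues, Pfkfb2 had a log2 fold change of -0.06, Pfkfb4 of 0.28 and Pfkfb1 of 0.18, and none was called. Pfkfb3 made up 40.3 ± 5.85% of the RPKM of the 4 genes in TBI and 28.5 ± 0.714% in control (SD, n = 3 each).

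Of the lactate dehydrogenase subunits Ldhb fell and Ldha was not called. Ldhb, the heart-type subunit, whose tetramers are known for favouring the turn of lactate into pyruvate (chromosome 6, 142490249 to 142507961, minus strand), was at 123, 122 and 111 RPKM in TBI and 155, 143 and 149 RPKM in control. Every TBI library was below every control library. It fell by 0.41 on the log2 scale (SE 0.08, 0.75 times the control level, edgeR adjusted p = 0.0028). Ldha, the muscle-type subunit, whose tetramers are known for favouring lactate production (chromosome 7, 46845804 to 46855627, plus strand), was at 114, 90.4 and 90.8 RPKM in TBI and 82.8, 79.4 and 89.0 RPKM in control. TBI library 1 stood above the other 5, the groups overlapped once TMM factors were applied, and the log2 fold change of 0.15 was not called (95% interval -0.06 to 0.37, edgeR adjusted p = 0.349). Ldha has processed pseudogenes in the mouse genome, and no label or processing note used here says how reads with several matches were counted. The haemoglobin genes Hba-a1 and Hba-a2, at separate loci, had nearly equal counts, as if reads matching both were counted at each. These were 7837 and 7851 in TBI library 1, and 3373 and 3378 in control library 1. What this means for Ldha was not tested.

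Ldha made up 48.1, 42.6 and 45.0% of the summed RPKM of the 2 subunits in TBI libraries and 34.8, 35.7 and 37.4% in control libraries. The Ldha to Ldhb ratio was 1.47 times as high in TBI with no overlap (exact permutation p = 0.1, adjusted 0.125). The sum of the 2 subunits was 217 ± 17.7 RPKM in TBI and 233 ± 9.13 RPKM in control (SD, n = 3 each), a difference in means smaller than the SD of the TBI libraries and larger than that of the control libraries.

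Both monocarboxylate transporters of the set were higher. Slc16a3, the gene of MCT4, a low-affinity transporter known for lactate export from glycolytic cells (chromosome 11, 120948484 to 120959000, plus strand), was at 3.35, 2.19 and 4.36 RPKM in TBI and 0.941, 0.974 and 0.841 RPKM in control. Its TBI libraries spread widely, library 3 being highest and library 2 lowest, and all lay above control. It rose 3.40-fold (log2 fold change 1.77 ± 0.21 SE, edgeR adjusted p = 0.000102), and without TBI library 3 the log2 fold change was 1.51. Slc16a1, the gene of MCT1, found in endothelium, oligodendrocytes and astrocytes (chromosome 3, 104638664 to 104658462, plus strand), was at 20.6, 18.0 and 20.0 RPKM in TBI and 12.2, 9.0 and 11.9 RPKM in control. These groups did not overlap either, and the rise was 1.67-fold (log2 fold change 0.74 ± 0.12 SE, edgeR adjusted p = 0.0009).

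Slc16a7, the gene of MCT2, the high-affinity transporter of neurons, went the other way. It averaged 5.85 ± 0.364 RPKM in TBI and 8.97 ± 0.741 RPKM in control (SD, n = 3 each; log2 fold change -0.70 ± 0.10 SE, edgeR adjusted p = 0.000327). Of the summed RPKM of the 3 transporters, Slc16a7 made up 20.4 ± 0.969% in TBI and 43.0 ± 2.24% in control, Slc16a3 made up 11.4 ± 2.94% in TBI and 4.44 ± 0.776% in control, and Slc16a1 made up 68.2 ± 1.97% in TBI and 52.6 ± 3.0% in control. The Slc16a3 to Slc16a1 ratio was 0.162, 0.122 and 0.218 in TBI and 0.0768, 0.108 and 0.0708 in control (exact permutation p = 0.1, adjusted 0.125), and TBI library 2 came close to control library 2. Bsg, the gene of basigin, the chaperone that MCT1 and MCT4 need at the membrane, averaged 104 ± 3.86 RPKM in TBI and 115 ± 4.30 RPKM in control. Its log2 fold change of -0.22 was not called (edgeR adjusted p = 0.0596), and it was called without control library 2 (edgeR adjusted p = 0.0245), with FANTOM3 clone rows left out (edgeR adjusted p = 0.0142), with DESeq2 (adjusted p = 0.0431) and with limma-voom (adjusted p = 0.0439).

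**Figure D2:**
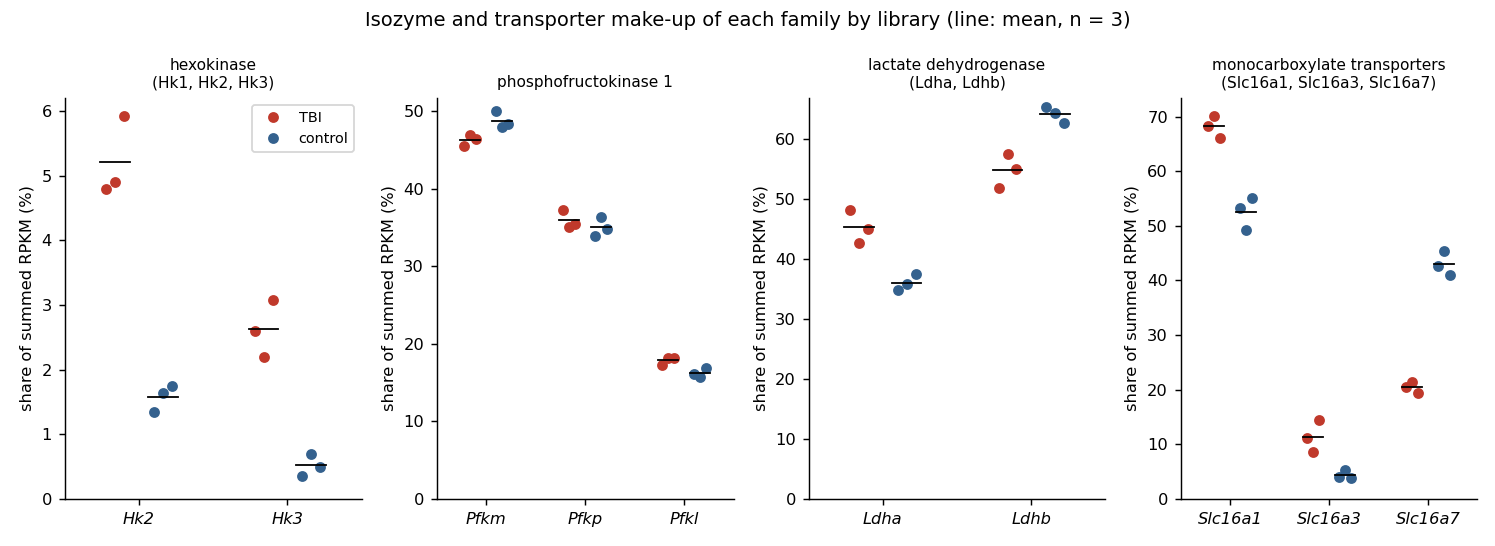
Share of each isozyme or transporter in the summed RPKM of its family, in percent, for the 3 TBI and 3 control libraries, with lines at the means. Hexokinase shares are of the sum of Hk1, Hk2 and Hk3, without Hkdc1, and Hk1, the remainder of that sum, is not drawn. Ldha averaged 45.3% in TBI and 36.0% in control, and Slc16a7 20.4% in TBI and 43.0% in control.

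In RPKM, 7 of the 10 genes were higher in every TBI library than in any control library (23.2% of all rows tested) and 1 was lower (11.2%). With TMM factors applied to the RPKM these counts were 5 (17.3%) and 1 (16.4%). The order of levels was nearly the same in both groups. It ran Ldhb, Ldha, Pfkm, Hk1, Pfkp, Pfkl, Slc16a1, Pfkfb3, Slc16a3 and Hk2 in control, and Hk1 and Pfkp changed places in TBI. Among neighbours in this order, the TBI values of Ldhb and Ldha, Pfkp and Hk1, Pfkfb3 and Slc16a3, and Slc16a3 and Hk2 overlapped, and in control only those of Hk1 and Pfkp did. Of the 24 transcript rows of the 10 genes, 14 were called, 13 higher and 1 lower (19.9% of all transcript rows were called). Since each held at least 90.3% of its gene's counts, and 11 of the 13 belong to Pfkfb3 and Slc16a3, these rows repeat the gene values and the 2 shares cannot be compared.

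The 4 genes that rose can be set beside the start of their transcription units. The core letters of the hypoxia response element, to which hypoxia-inducible factors are known to bind, were searched as ACGTG and GCGTG on both strands of the 250 bases before each start site (RefSeq, GRCm38.p6). All 10 genes were matched, with 16 start sites. The site nearest the deposited row start coincided with it for Hk2 and Slc16a1. It lay 583 bases inside the row for Slc16a3 and 142 bases inside the row for Pfkfb3. The windows nearest the deposited row start are shown for the 4 higher genes, 5′ to 3′ on the gene's strand, with matches in capitals. CACGTG reads as ACGTG on both strands and was counted on each.
Hk2, chr6:82774455-82774704, minus strand: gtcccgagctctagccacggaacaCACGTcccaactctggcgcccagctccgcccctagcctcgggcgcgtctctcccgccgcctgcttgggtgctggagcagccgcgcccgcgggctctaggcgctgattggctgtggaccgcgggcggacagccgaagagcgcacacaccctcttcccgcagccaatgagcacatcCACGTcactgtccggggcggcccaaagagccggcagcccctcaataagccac
Slc16a3, chr11:120948817-120949066, plus strand: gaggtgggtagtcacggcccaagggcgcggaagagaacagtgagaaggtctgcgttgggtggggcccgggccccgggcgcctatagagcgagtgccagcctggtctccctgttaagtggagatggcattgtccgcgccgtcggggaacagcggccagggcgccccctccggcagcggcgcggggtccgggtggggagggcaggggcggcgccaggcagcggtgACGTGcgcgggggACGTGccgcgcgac
Slc16a1, chr3:104638414-104638663, plus strand: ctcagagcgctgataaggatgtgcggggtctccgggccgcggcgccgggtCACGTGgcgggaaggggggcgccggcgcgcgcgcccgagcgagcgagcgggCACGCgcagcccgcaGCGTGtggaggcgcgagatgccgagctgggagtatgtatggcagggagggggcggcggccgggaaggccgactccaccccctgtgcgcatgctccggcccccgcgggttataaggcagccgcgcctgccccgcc
Pfkfb3, chr2:11553930-11554179, minus strand: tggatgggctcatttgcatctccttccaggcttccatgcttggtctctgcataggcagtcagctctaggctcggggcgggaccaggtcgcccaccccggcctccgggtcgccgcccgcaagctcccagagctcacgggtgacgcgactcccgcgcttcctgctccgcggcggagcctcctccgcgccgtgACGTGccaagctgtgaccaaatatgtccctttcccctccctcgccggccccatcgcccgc
Hk2 held 2 matches, Slc16a3 2, Slc16a1 4 and Pfkfb3 1. Of the genes not called higher, Ldha held 5, Pfkp 3, Pfkm 2, Ldhb 1, Pfkl 1 and Hk1 0 in the window nearest the row start. In these nearest windows at least 1 match was found for 9 of the 10 genes. Of all 16 windows of the 10 genes 14 held a match, among them a second Hk1 window with 3, so no gene lacked one. Over all 32851 windows searched, the share with a match was 38.6%. Base composition was not matched.

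Most of the rest of the glycolytic chain was not called. Of 23 other genes of glucose uptake and glycolysis, 2 were higher (Hk3 and Pgm1), 1 was lower (Hkdc1) and 20 were not called. The median log2 fold change was 0.06. Pgm1, on chromosome 5, had a log2 fold change of 0.87. Pgm2, on chromosome 4 and named after its values were seen, had -0.01 (edgeR adjusted p = 0.956). Of the 20, 16 were not called under any of 13 alternatives, while Slc2a1, Pfkfb4, Bpgm and Pkm were called higher without TMM factors. Gapdh averaged 511 ± 8.42 RPKM in TBI and 470 ± 13.6 RPKM in control (SD, n = 3 each; log2 fold change 0.04, edgeR adjusted p = 0.761). The glucose transporter genes Slc2a1 and Slc2a3 had log2 fold changes of 0.28 (95% interval 0.07 to 0.48, edgeR adjusted p = 0.0646, and 0.0238 with a replicate block) and 0.06 (edgeR adjusted p = 0.735), and both, like the Pfkfb paralogues, were named after their values were seen. Pkm, the pyruvate kinase of brain, averaged 346 ± 21.3 RPKM in TBI and 291 ± 6.06 RPKM in control. Its log2 fold change of 0.17 was not called (edgeR adjusted p = 0.172), and it was called without TMM factors (0.25, edgeR adjusted p = 0.0265).

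**Figure D3:**
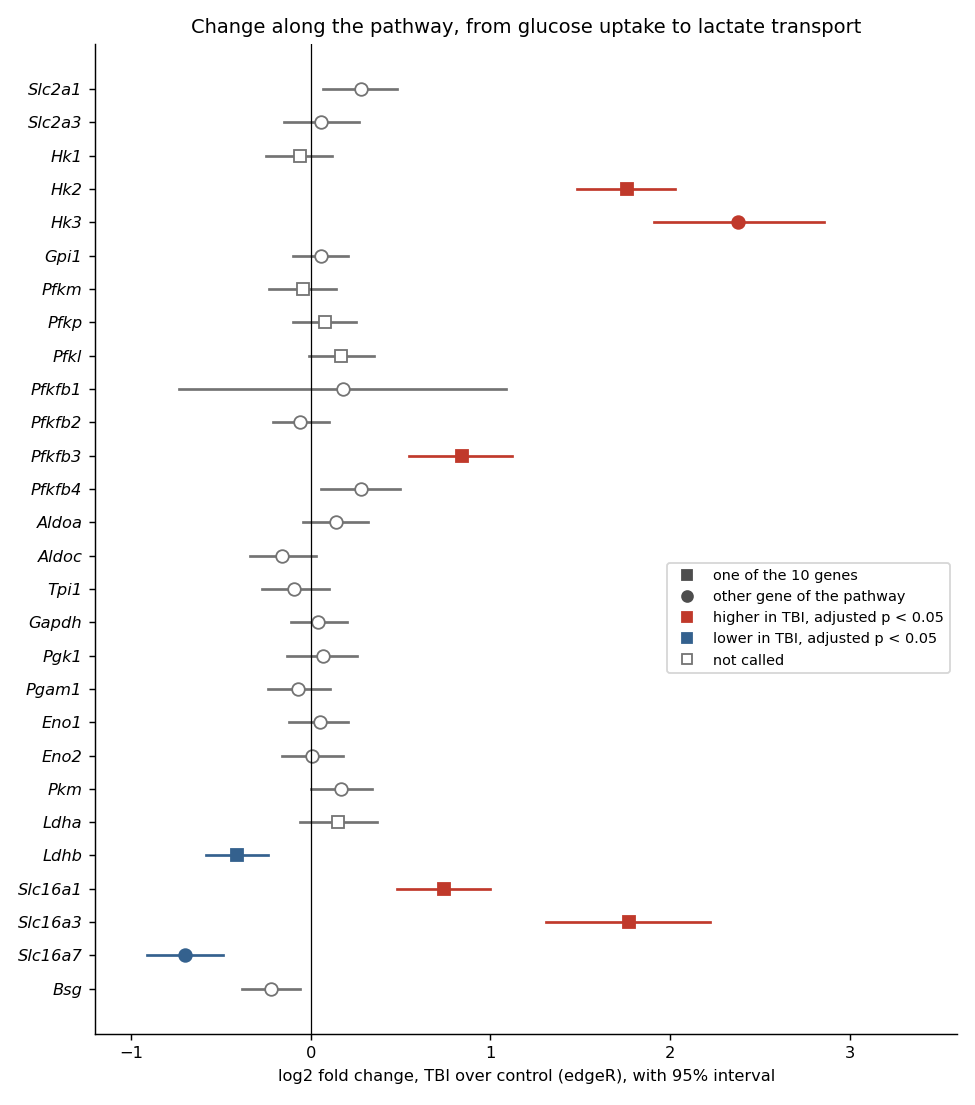
Log2 fold change, TBI over control, with its 95% interval from edgeR, for the 10 genes (squares) and other genes of the pathway (circles), from glucose uptake at the top to lactate transport at the bottom. Filled symbols were called, with red higher and blue lower. Most central enzymes lie near 0, while Hk2, Hk3, Pfkfb3, Slc16a1 and Slc16a3 lie to the right and Ldhb and Slc16a7 to the left.

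Although the Pkm total was not called, its 2 splice forms differed, a result looked for after the values were seen and given as a description. Pkm makes M1, the form of neurons and muscle, and M2, the regulated form of growing and immune cells and astrocytes, by using 1 of 2 mutually exclusive exons of 167 bases. The M1 and M2 transcript rows were each 2432 bases long and the gene row 2599 bases, so they differ by that exon. In GENCODE M21 (GRCm38) the 2 exons are 61.7% identical, and they are shown because the reads below rest on them, with the 64 positions that differ in capitals.
Pkm M2 exon, chr9:59675568-59675734, plus strand: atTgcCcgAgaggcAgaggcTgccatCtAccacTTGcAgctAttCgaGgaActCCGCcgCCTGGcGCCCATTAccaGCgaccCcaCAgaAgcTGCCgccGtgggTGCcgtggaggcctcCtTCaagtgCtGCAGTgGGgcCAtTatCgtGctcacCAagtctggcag
Pkm M1 exon, chr9:59675029-59675195, plus strand: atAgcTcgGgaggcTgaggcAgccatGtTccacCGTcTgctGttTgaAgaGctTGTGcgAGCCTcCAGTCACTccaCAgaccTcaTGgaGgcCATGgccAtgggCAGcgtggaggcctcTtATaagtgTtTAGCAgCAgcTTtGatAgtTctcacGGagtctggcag
Reads of each exon were inferred by subtracting rows, on the assumption that the gene row covers the exons of both transcripts, with the counting rules unknown. Counts in the gene row but not in the M1 row, taken as reads of the M2 exon, were 442, 464 and 449 in TBI libraries and 202, 179 and 254 in control libraries. Counts in the gene row but not in the M2 row were 1875, 1890 and 1425 in TBI libraries and 1824, 1799 and 2094 in control libraries. The M2 counts did not overlap between groups and the M1 counts did. M2 made up 19.1, 19.7 and 24.0% of these counts in TBI and 9.97, 9.05 and 10.8% in control. The M2 to M1 ratio was 2.39 times as high in TBI.

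**Figure D4:**
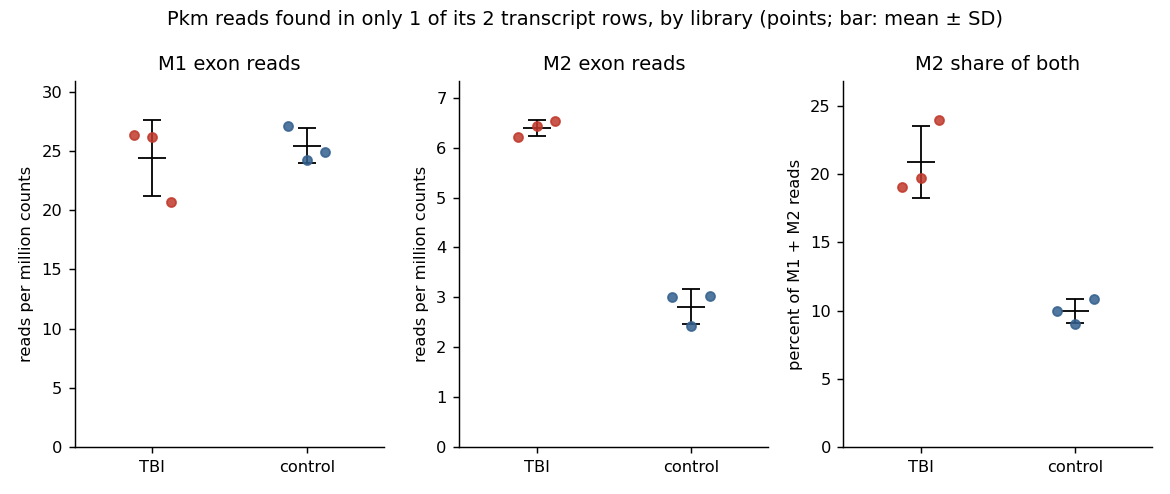
Reads of the M1 exon and of the M2 exon of Pkm, inferred by subtracting transcript rows from the gene row, scaled to the library's gene-row total (CPM), and the M2 share of both in percent, in the 3 TBI and 3 control libraries; points are libraries and bars the mean ± SD. M2 reads averaged 6.39 CPM in TBI and 2.82 CPM in control, while M1 reads averaged 24.4 CPM in TBI and 25.4 CPM in control.

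Genes around the pathway were read from lists of neighbouring steps. In the pentose phosphate pathway, which makes NADPH from glucose phosphate, 5 of 8 tested genes rose and none fell, with a median log2 fold change of 0.33. G6pdx, its rate-limiting dehydrogenase, averaged 10.02 ± 0.257 RPKM in TBI and 5.90 ± 0.170 RPKM in control (SD, n = 3 each; log2 fold change 0.68 ± 0.08 SE, edgeR adjusted p = 6.20e-05), and Pgd, the next dehydrogenase in the pathway, averaged 8.36 ± 0.191 RPKM in TBI and 4.84 ± 0.469 RPKM in control. Taldo1 and H6pd had log2 fold changes of 0.34 and 0.47, and H6pd was not called without TBI library 2 (edgeR adjusted p = 0.0546). Tkt, the transketolase gene, had 0.32 and was not called without TBI library 1 (edgeR adjusted p = 0.0513) or control library 3 (0.0616). Of 15 genes of pyruvate fate, 1 rose and 5 fell (median -0.18), and of these calls the rise of Pdk4 and 1 fall, that of Pdp1, held in all 13 alternatives. Pdhb and Pcx, the other falls beside Pdp2 and Mpc2, had -0.23 and -0.30, with edgeR adjusted p of 0.0461 and 0.0441, and of up to 0.162 and 0.182 without 1 library (control library 3 and control library 1). Pdk4, a kinase that shuts down pyruvate dehydrogenase, had a log2 fold change of 0.76, and Pdp1, a phosphatase that turns it on, fell by 0.66. Pdk1 had -0.06 and was not called. Pdp2 and the pyruvate carrier gene Mpc2 had -0.42 and -0.37, and neither was called without TBI library 1 (edgeR adjusted p = 0.126 and 0.0915), TBI library 3 (0.118 and 0.0965), control library 1 (0.0734 and 0.120), control library 3 (0.126 and 0.161) or TMM factors (0.0822 and 0.0766).

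Among 11 partners of lactate transport, 1 rose and 2 fell (median 0.14). Car4, a membrane carbonic anhydrase, fell by 0.95 on the log2 scale along with Slc16a7. Slc16a6 had 0.48, and it was not called without TBI library 1 (edgeR adjusted p = 0.0875), TBI library 3 (0.0502) or control library 3 (0.0694). Of 15 glycogen genes, 2 rose and 2 fell (median -0.08), with Pygl, a glycogen phosphorylase, at 0.74 and Gbe1, the branching enzyme, at 0.42. Ugp2 and Gsk3b, at -0.26 and -0.22, were not called without TMM factors (edgeR adjusted p = 0.0814 and 0.175), without TBI library 1 (0.0751 and 0.145), control library 1 (0.0654 and 0.125) or control library 3 (0.108 and 0.0736). Ugp2 was also not called without TBI library 3 (edgeR adjusted p = 0.0698), and Gsk3b without TBI library 2 (0.103) or control library 2 (0.0607) and with a replicate block (0.0637).

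Of 23 genes of the hypoxia response 6 were higher and 2 lower, with a median of -0.00, and 4 of the higher calls and 0 of the lower ones held in all 13 alternatives. The lower genes Vhl and Hif1an, which restrain hypoxia-inducible factors, had edgeR adjusted p of 0.0236 and 0.0218, and of 0.109 and 0.0827 without control library 3. Epas1, another hypoxia-inducible factor subunit, was called higher (0.26, edgeR adjusted p = 0.0415) but not without TBI library 3 (0.180) or control library 3 (0.142). It was also not called without TBI library 1 (edgeR adjusted p = 0.0780), control library 1 (0.0633) or control library 2 (0.0725), nor with no filter on low counts (0.0516). Hif1a, the oxygen-regulated subunit of the hypoxia-inducible factor, averaged 28.4 ± 2.0 RPKM in TBI and 20.2 ± 0.877 RPKM in control (SD, n = 3 each; log2 fold change 0.41 ± 0.08 SE, edgeR adjusted p = 0.00314). Adm, the adrenomedullin gene, and the carbonic anhydrase genes Car9 and Car12 had log2 fold changes of 2.08, 1.70 and 1.0. Car9 had few counts, 27, 35 and 49 in TBI libraries and 11, 12 and 11 in control libraries. It was not called without TBI library 3 (edgeR adjusted p = 0.0520). Other known targets, among them Bnip3 (0.05), Ndrg1 (-0.11), Vegfa (-0.11) and Egln3 (0.15), named after their values were seen, were not called. Vegfa was called lower without TBI library 1 (-0.35, edgeR adjusted p = 0.0197) and Ndrg1 without control library 2 (-0.23, edgeR adjusted p = 0.0391). Of 12 regulators of glycolytic genes, 4 rose and 2 fell (median 0.08). Myc averaged 3.19 ± 0.594 RPKM in TBI and 0.831 ± 0.108 RPKM in control, Txnip and Trp53 had log2 fold changes of 0.76 and 0.69, and Prkaa2, a catalytic subunit of the energy sensor AMPK, fell by 0.51. Prkaa1, its other catalytic subunit, was higher (0.35, edgeR adjusted p = 0.00531).

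Markers listed for monocytes, macrophages and neutrophils moved with the genes that rose. Whether their RNA came from blood-borne or resident cells was not tested. All 8 monocyte and macrophage markers were higher, with a summed level of 50.7 to 64.5 RPKM in TBI and 6.78 to 8.06 RPKM in control. Of 6 tested neutrophil markers 5 were higher, and the sum over the 7 with a row was 49.6, 36.4 and 105 RPKM in TBI libraries 1 to 3 and 1.46 to 3.46 RPKM in control. TBI library 3 was highest and library 2 lowest in this neutrophil sum, as in Slc16a3 and Hk2. That order was not particular to neutrophil markers. The monocyte and macrophage sum had it too, at 53.9, 50.7 and 64.5 RPKM in TBI libraries 1 to 3. So did the sum of the oligodendrocyte markers below, at 890, 694 and 1100 RPKM. Pfkfb3 and Slc16a1 were also lowest in TBI library 2 but were highest in TBI library 1. The part of any of these cell types in the rises was not tested. No monocyte, macrophage or neutrophil marker was at 0 in every control library, and Ly6c2 was at 0 in 2 of them. Of 8 microglia markers 4 were higher and 3 lower, with sums of 83.0 to 85.8 RPKM in TBI and 79.5 to 84.4 RPKM in control. Of 12 neuron markers 6 were lower, with sums of 1573 to 1728 RPKM in TBI and 1935 to 2067 RPKM in control, moving with Ldhb and Slc16a7, and their part in those falls was not tested.

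Of 10 astrocyte markers 4 were higher and 3 lower, with sums of 866 to 927 RPKM in TBI and 876 to 954 RPKM in control, and of 7 endothelial markers 3 were higher and 1 lower, with sums of 62.9 to 65.8 RPKM in TBI and 48.4 to 55.2 RPKM in control. Oligodendrocyte markers had 1 of 8 higher (694 to 1100 RPKM in TBI and 568 to 1015 RPKM in control). That 1, Cldn11, was not called in several alternatives, among them DESeq2 (adjusted p = 0.138) and edgeR without TBI library 3 (adjusted p = 0.143). With a replicate block Mobp, Mag and Ermn were also called higher (edgeR adjusted p = 0.000449, 0.00674 and 0.00706). Pericyte and smooth muscle markers had 1 of 6 lower (38.1 to 40.2 RPKM in TBI and 39.4 to 43.9 RPKM in control). Erythroid markers had 4 of 5 higher (236 to 452 RPKM in TBI and 106 to 179 RPKM in control). Of these, Hba-a1 and Hba-a2 had nearly equal counts (7837 and 7851 in TBI library 1), so they may not be separate measurements, and both are in the sum. Hbb-bt was not called with DESeq2 (adjusted p = 0.0568), nor by edgeR without TBI library 3 (adjusted p = 0.0628) or control library 1 (0.0577). Skeletal muscle markers had 0 of 4 tested called by edgeR and 1, Acta1, at an unadjusted p under 0.05 (2.95 to 3.44 RPKM in TBI and 3.39 to 4.31 RPKM in control).

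The genes whose profile over the 6 libraries was most like those of Slc16a3 and Ldhb, the genes with the largest rise and fall as fitted, were found among 12984 named rows with a mean RPKM of at least 1. The rises of Slc16a3 (1.77) and Hk2 (1.76) were within their errors, and Hk2 had the larger one under limma-voom (1.74 against 1.71) and 4 other alternatives. Likeness was the root mean square difference of log2(RPKM + 1), centred on the control mean. The nearest to Slc16a3 were Csf3r, the receptor for granulocyte colony-stimulating factor and one of the neutrophil markers above (0.061), the kinase gene Pim1 (0.063) and Tnfrsf1b, a receptor for tumour necrosis factor (0.073). Csf3r and Tnfrsf1b averaged 0.538 and 0.431 RPKM in control, so they passed the minimum only through the TBI libraries, where they are high. The nearest to Ldhb were the profilin gene Pfn2 (0.025), Enoph1 (0.027) and Stxbp6 (0.030). Within a distance of 0.1 lay 503 rows for Ldhb and 10 for Slc16a3, so the genes nearest Ldhb are little set apart from many others.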

How the data were processed

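Reads from 6 cortical RNA libraries (3 TBI, 3 control) were aligned with TopHat2 to mm10, per the submitters' processing notes. The counter, its strand setting and the annotation release were not given in the sources used here. The authors deposited, as the headers show, a count and an RPKM value per library for 56826 gene rows and 64529 transcript rows. Among them 33353 gene rows were FANTOM3 cDNA clones. Rows overlap, so 1 read can be counted in several rows. Groups came from the sample titles, and totals per library (given above) set the counting precision.

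edgeR 4.0.16 (R 4.3.3) supplied the test of all deposited counts, a quasi-likelihood F test (filterByExpr with minimum count 10 and minimum total 15, TMM factors, group as the 1 term, p-values adjusted by Benjamini-Hochberg over the whole table). On simulated gene counts 20 of 177 calls (11.3%) were false, above the nominal level of 0.05. Of the 42281 simulated rows, 103 were changed by 1 and 95 by 2 on the log2 scale. In the data 7476 rows were called, so the simulation does not measure their share of false calls. Alternatives were RLE size factors, DESeq2 1.42.0, limma-voom (limma 3.58.1), no filter, FANTOM3 rows left out, a replicate block and each library left out, plus no TMM factors, added after seeing the data. Isozyme ratios of RPKM were tested by two-sided exact permutation.

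The 10 genes and the lists were chosen with earlier results of these data known. Named genes are the 10, up to 4 called members with the largest change from each list, Slc16a7, Bsg, Pkm, Gapdh, Pdk1 and Hif1a, and the 3 most like the members with the largest rise and fall. Hcar1, Tigar, Ly6g and Hbb-bs had no row of that symbol. Some list members are counted but not reported here by name.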

Additional observations from a re-analysis of the deposited data

How the results depend on the processing

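The call of 4 genes higher and 1 lower was obtained under every alternative run but one: without TMM factors 5 were higher, Pfkl being added, and 1 lower. Leaving out each library gave 4 higher and 1 lower each time, and 5430 to 7902 called rows over the whole table, against 7476 with all libraries. The most rows were called without control library 2 (3838 higher and 4064 lower). In that library the oligodendrocyte marker sum was 568 RPKM, against 1015 and 834 RPKM in control libraries 1 and 3. Its Gad2 level was 38.2 RPKM, against 17.4 and 19.9 RPKM. Member transcripts called were 14 under each alternative run on them. Without TMM factors the log2 fold changes of the uncalled genes Hk1, Pfkm and Pdk1 were 0.02, 0.04 and 0.03, of opposite sign to the values reported. Leaving out 1 library gave ranges of -0.12 to 0.01 for Hk1, -0.12 to 0.03 for Pfkm, -0.01 to 0.12 for Pfkp and -0.16 to 0.01 for Pdk1; the cause was not tested.

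Replicate numbers are shared by the groups, but same-numbered libraries deviated together only weakly (r of 0.0543, 0.0546 and 0.0487 over 42762 rows), although each library correlated best with its own number. With a replicate block 8259 rows were called, again with 4 of the 10 genes higher and 1 lower, and the 5 ratios, whose mean paired differences equal the unpaired ones by arithmetic, had an exact sign-flip p of 0.25 or more, the smallest that 3 pairs allow. The Slc16a3 to Slc16a1 log2 difference of 0.96 was 0.58 with a pseudocount of 0.5 (exact permutation p = 0.2), and that of Hk2 to Hk1 was 1.31 in place of 1.81. For Pkm, M2 counts over all Pkm counts gave a log2 difference of 0.94 in place of 1.26, since all Pkm counts are a different denominator. Low counts limit Hk2 and Slc16a3 in control, at 163 to 360 counts a library. With 3 libraries a group no exact permutation test of a ratio can go below p = 0.1.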
